A study of Bos taurus with 18 samples.

Results

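The liver miRNAs *bta-miR-122* and *bta-miR-885* were followed in EX and FC, the RNA fractions of cattle plasma. EX is the exosomal RNA, carried in small membrane vesicles that cells shed, and FC is the non-exosomal, free circulating RNA of the same plasma. The miRNAs were chosen by name, as markers of hepatocytes, and are 2 of the 1071 miRNAs listed. Plasma came from 3 Japanese Black steers, a beef breed, at about 20, 25 and 30 months of age during fattening, with no treatment. Each of the 9 plasma samples gave 1 EX and 1 FC library, so that each of the 6 groups (EX and FC at each age) had 3 libraries, 1 per steer. All animals shared the same breed and feeding system, and no group was a control beyond the younger ages. The same steers were sampled at each age, so age cannot be told apart from anything else that changed between the sampling times.

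A miRNA is cut from a hairpin transcript and lowers the output of mRNAs that pair with its seed, the bases 2 to 8 from the 5′ end. *miR-122* is the dominant miRNA of hepatocytes, where it acts on cholesterol and lipid metabolism, and its plasma level is a known marker of liver cell injury. *miR-885* is far less abundant, and its 5′ arm is known as a circulating marker of liver disease in people. A plasma level depends on how much RNA the cells hold, how many cells release it and how fast it is cleared, and these cannot be told apart in such libraries.

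The mature sequences are shown because the results turn on counts of these exact molecules, with the seed in capitals.
*bta-miR-122*: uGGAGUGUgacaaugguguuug
*bta-miR-885*: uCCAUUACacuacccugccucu
*bta-miR-2411-5p*: uGGAGUGAcugucagaugcagcca
Both liver miRNAs have 22 bases, of which 10 are G or C in *bta-miR-122* and 11 in *bta-miR-885*. None (0) of the 1070 other listed sequences shares the seed of either. The closest is *bta-miR-2411-5p*, which shares bases 2 to 7 with *bta-miR-122* and did not exceed 11.1 CPM in any EX library or 9.68 CPM in any FC library, where CPM is the CPM-normalized count, scaled to the library total. In all 18 libraries, the counts of both liver miRNAs were whole within 0.02 counts, once the rows of 4 FC libraries described next to the depths were matched to the CPM table. In the RefSeq gene table of ARS-UCD2.0, the gene *MIR122* overlaps no other gene and lies between the lncRNA *LOC107131798* and the pseudogene *LOC781927*. The gene *MIR885* overlaps *ATP2B2*, which encodes a calcium pump of the plasma membrane.

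The EX libraries held 991354 to 2778618 counts and the FC libraries 3615234 to 12088735. A floor of 3 counts was worth 1.08 to 3.03 CPM in an EX library and 0.248 to 0.830 CPM in an FC library, and covers counting error only, since reads copied from the same molecule are not independent. Fewer miRNAs were detected at 30 months, 258 to 296 against 381 to 446 at the younger ages in EX and 398 to 452 against 582 to 694 in FC. In 4 FC libraries (that of steer 3 at 25 months and the 3 of 30 months), counts from *bta-miR-6526* or *bta-miR-6528* downwards were displaced by 1 row relative to the CPM table, and the affected rows include *bta-miR-885*. The row named *bta-miR-885* held 167495, 29100, 14106 and 17980 counts there, which match the CPM of *bta-miR-92a*, whereas the CPM table gives 287, 0, 0 and 2 counts. The unaffected 5 FC libraries held 138 to 481 counts of it. That the CPM table has the right rows is an inference from these values and is not settled. It was not checked against the supplementary lists of the study. The realigned counts were used for all tests, and the effect of the displacement is given where it changes a result.

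**Figure D1:**
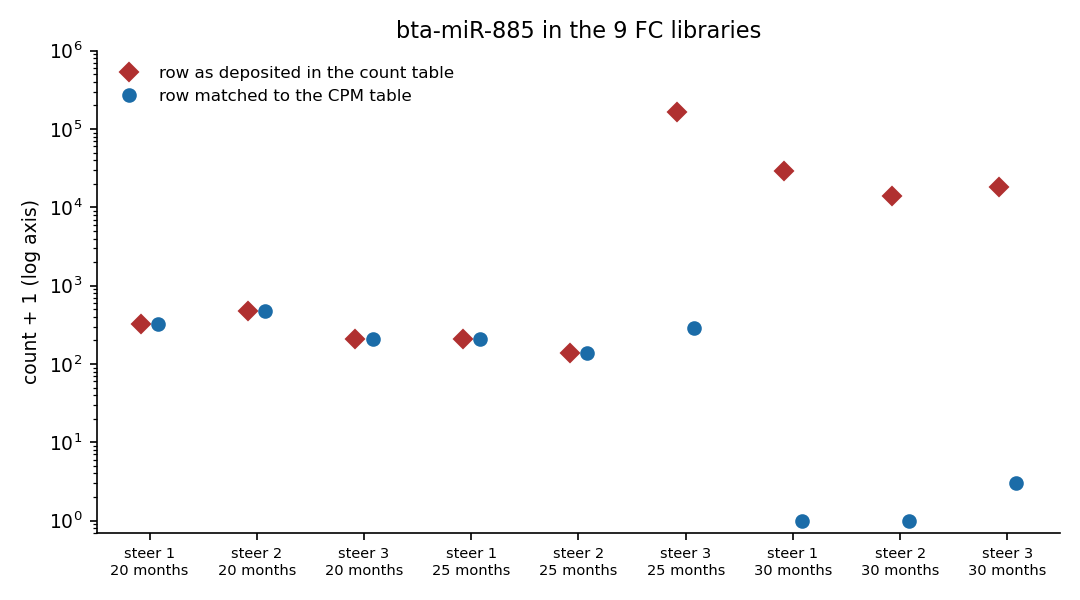
Counts of *bta-miR-885* in the 9 FC libraries (x axis: steer and age) on a log axis of count + 1. Red diamonds are the row as deposited in the count table and blue circles the row matched to the CPM table. They coincide in 5 libraries and part in 4, where the deposited row holds 14106 to 167495 counts and the matched row 0 to 287.

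*bta-miR-122* was among the most abundant miRNAs of plasma at every age, with wide differences between animals and, in steer 3, between ages. It made up 1.22 to 10.86% of the counts in EX and 1.89 to 12.2% in FC, and ranked 2 to 15 in EX and 1 to 10 in FC, with a median rank of 6 in both fractions. In EX at 20 months, steers 1, 2 and 3 had 22939, 95221 and 31004 CPM (mean 49721 ± 39610, SD, n = 3). At 25 months they had 20279, 72979 and 12218 CPM (35159 ± 33001). At 30 months they had 35472, 108600 and 100406 CPM (81493 ± 40065). Steer 2 was well above the others at 20 and 25 months, and the 3 age groups overlapped.

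The FC fraction of the same plasma gave a similar picture. At 20 months, steers 1, 2 and 3 had 39474, 121516 and 42706 CPM of *bta-miR-122* (mean 67899 ± 46462, SD, n = 3). At 25 months they had 24776, 75377 and 18934 CPM (39696 ± 31039). At 30 months they had 23010, 74438 and 97366 CPM (64938 ± 38077). Steer 2 was the highest of the 3 in 5 of the 6 groups, the exception being FC at 30 months, where steer 3 was. From the lowest to the highest library, *bta-miR-122* spanned 8.89-fold in EX and 6.42-fold in FC.

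**Figure D2:**
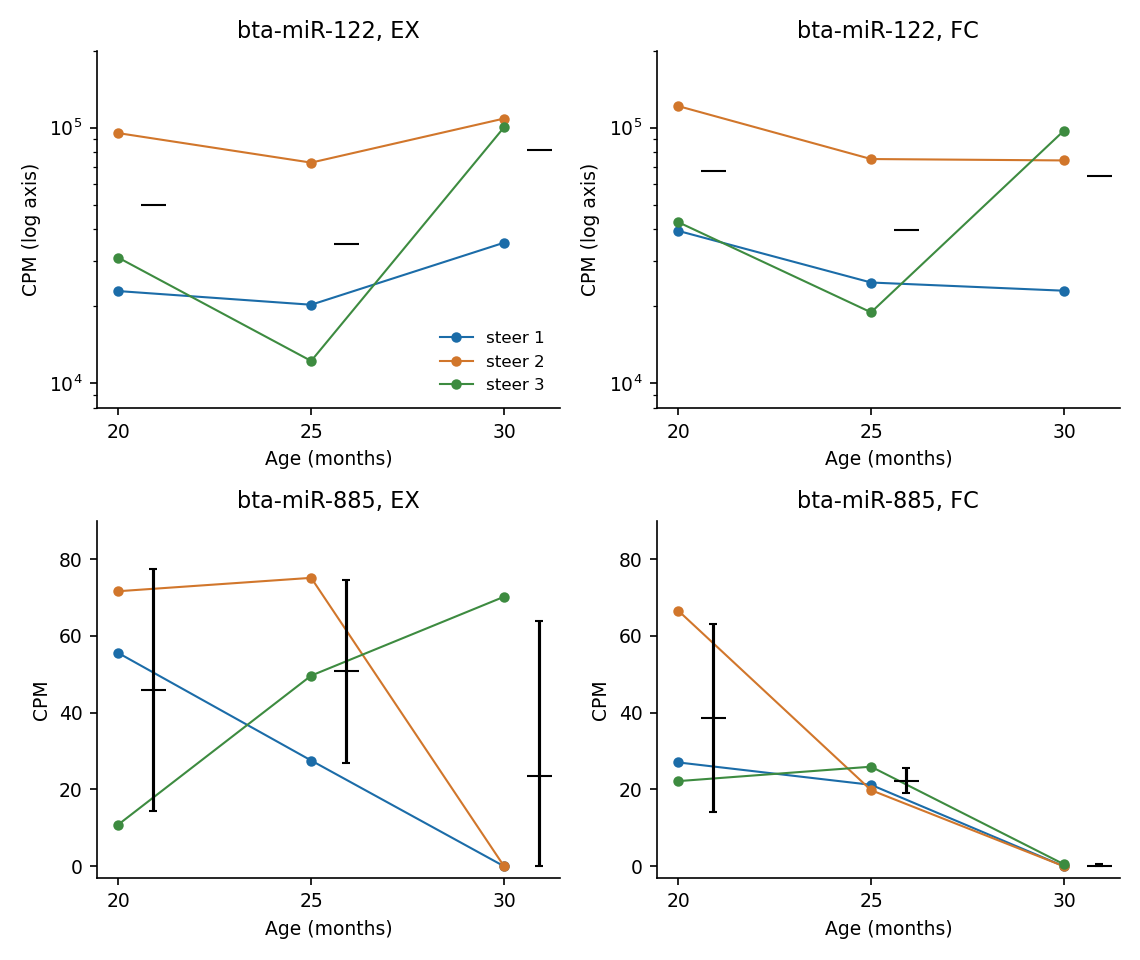
CPM of *bta-miR-122* (top, log axis) and *bta-miR-885* (bottom, linear axis) at 20, 25 and 30 months in EX (left) and FC (right), 1 coloured line per steer. Black marks to the right of each age are the means of 3 libraries, with SD bars (cut at 0) for *bta-miR-885*. *bta-miR-122* in steer 3 goes from 12218 to 100406 CPM (EX) and from 18934 to 97366 CPM (FC) between 25 and 30 months, and *bta-miR-885* falls to 0 to 0.526 CPM in FC at 30 months.

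In steer 2, *bta-miR-122* exceeded steer 1 at each age in both fractions. With age in the model, the log2 difference of steer 2 over steer 1 was 1.93 ± 0.46 (SE) in EX and 1.89 ± 0.45 in FC, and that of steer 3 over steer 1 was 0.63 ± 0.45 and 1.02 ± 0.46. The test over the 3 steers gave an unadjusted p of 0.0061 in EX, the 2nd smallest of 345 miRNAs, and of 0.00792 in FC, the 7th smallest of 358, from edgeR's quasi-likelihood F test. Neither passed after Benjamini-Hochberg adjustment (FDR 0.901 and 0.405), and this test called 0% of the miRNAs in EX and 0% in FC, with 7 and 27 at an unadjusted p under 0.05. Likelihood ratio tests in edgeR and DESeq2 did call *bta-miR-122*, with FDR 0.0131 and 0.00142 in EX and 0.0185 and 0.0296 in FC. The EX and FC libraries of a steer come from the same plasma, so the 2 fractions are not independent evidence.

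From 20 to 25 months, *bta-miR-122* was lower in each of the 3 steers in both fractions, with CPM ratios of 0.884, 0.766 and 0.394 in EX and 0.628, 0.620 and 0.443 in FC (steers 1, 2 and 3). On the TMM scale of the fit, the ratio in EX of steer 1 was 1.05, and the other 5 stayed below 1. The fitted log2 fold change was -0.48 ± 0.44 (95% interval -1.49 to 0.54, FDR 0.998 by edgeR) in EX and -0.72 ± 0.44 (-1.72 to 0.28, FDR 0.999) in FC, and did not pass. A DE-miRNA was called between ages at FDR below 0.05 and a log2 fold change beyond 1 in size, and this called 0.29% of the miRNAs in EX and 0% in FC, where 13 had an unadjusted p under 0.05.

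From 25 to 30 months, steer 3 stood apart in *bta-miR-122*. Its CPM rose 8.22-fold in EX and 5.14-fold in FC, against 1.75- and 1.49-fold in EX and 0.929- and 0.988-fold in FC for steers 1 and 2. On the TMM scale the rise of steer 3 was smaller, 5.05-fold in EX and 3.86-fold in FC. Its EX and FC libraries had TMM factors of 0.742 and 0.734 at 25 months, against 1.21 and 0.979 at 30 months. The other steers then changed by 1.38- and 1.18-fold in EX and 0.965- and 0.981-fold in FC. Fitted over the 3 steers, the log2 fold change was 1.04 ± 0.46 (SE, interval -0.02 to 2.09, unadjusted p 0.0527, FDR 0.165 by edgeR) in EX and 0.72 ± 0.46 (-0.32 to 1.75, FDR 0.287) in FC. Neither was called, while 14.2% of miRNAs in EX and 15.6% in FC were. The DESeq2 test did call it in EX (1.13, FDR 0.0259), and FDR ranged from 0.0259 to 0.649 over the alternatives. Without steer 3, the estimates were 0.34 in EX and 0.03 in FC. Between 20 and 30 months the log2 fold change was 0.56 ± 0.45 (-0.47 to 1.59, FDR 0.444) in EX and -0.01 ± 0.45 (-1.04 to 1.02, FDR 0.994) in FC, when 13.3% and 6.98% of miRNAs were called. Without steer 3 these 2 values were 0.06 in EX and -0.69 in FC, and without steer 2 the value in EX was 1.01.

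The change in steer 3 was set against all 330 miRNAs that passed the filter in both fractions. The measure was the change from 25 to 30 months on the log2(CPM + 1) scale in steer 3 minus the mean change of steers 1 and 2. For *bta-miR-122* it was 2.35 in EX and 2.42 in FC, which ranked 56th and 17th. Ranked by the smaller of its EX and FC values, *bta-miR-122* was 4th of 330, behind *bta-miR-2483-5p* (4.66), *bta-miR-483* (3.02) and *bta-miR-7857-5p* (2.74). The mean levels of these 3 were 11.0, 52.7 and 16.5 CPM, against 56484 CPM for *bta-miR-122*. The excess of steer 3 was smaller for the other abundant liver miRNAs, at 1.25 in EX and 1.37 in FC for *bta-miR-192* and 0.79 and 1.03 for *bta-miR-148a*. In all, 52 of the 330 miRNAs exceeded 1 and 8 exceeded 2 in both fractions. All of these values are of CPM without TMM. On the TMM scale the excess of *bta-miR-122* was smaller in both fractions, so the numbers over each limit depend on the scaling. With 1 animal in the contrast there is no test, and these ranks describe 1 plasma sample taken at each of 2 ages.

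**Figure D3:**
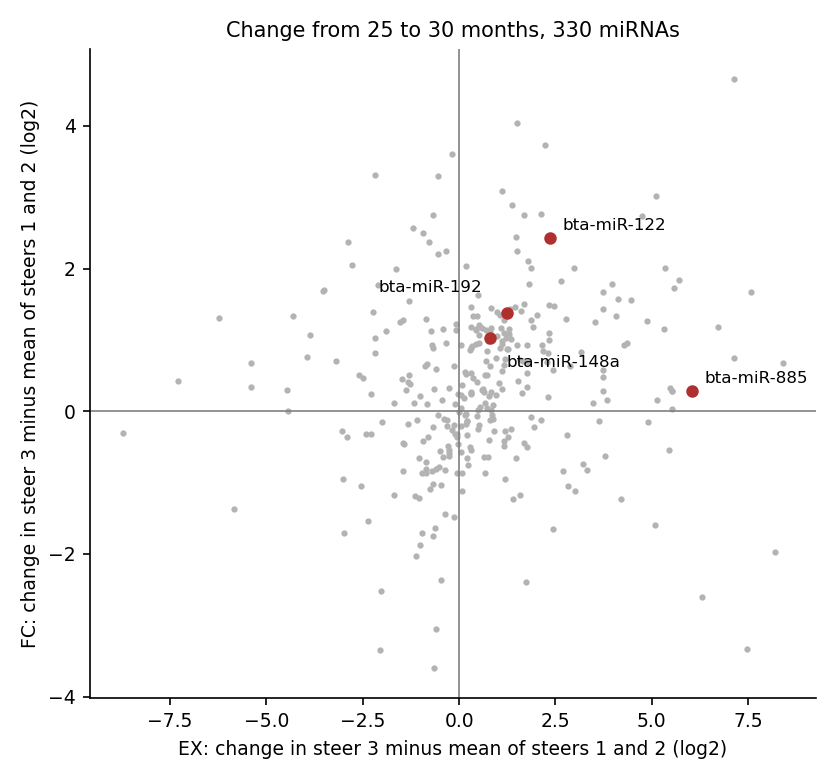
Change from 25 to 30 months in steer 3 minus the mean change of steers 1 and 2, on the log2(CPM + 1) scale, in EX (x axis) and FC (y axis). Each point is 1 of 330 miRNAs and red points are named. *bta-miR-122* lies at 2.35 and 2.42, above *bta-miR-192* (1.25 and 1.37) on both axes, while *bta-miR-885* lies at 6.03 in EX and 0.29 in FC. The 6.03 comes from the fall to 0 counts in steers 1 and 2 (-4.84 and -6.25), since steer 3 changed by 0.49. Its size depends on the 1 CPM added.

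EX and FC of the same plasma were compared next, to see in which fraction the liver miRNAs were relatively more abundant. The EX over FC ratio of *bta-miR-122* CPM was 0.581, 0.784 and 0.726 at 20 months in steers 1, 2 and 3, 0.818, 0.968 and 0.645 at 25 months, and 1.54, 1.46 and 1.03 at 30 months. It was thus below 1 in all 6 plasma samples of 20 and 25 months and above 1 in all 3 of 30 months. How many of the 330 miRNAs did the same was not counted. In the fit with plasma sample as block and TMM normalization, *bta-miR-122* was lower in EX by a log2 difference of -0.27 ± 0.08 (SE, n = 9 plasma samples of 3 steers, FDR 0.037 by edgeR), against a median of -0.42 over the 330 miRNAs, of which 26.1% were called. This call was lost when any 1 steer was left out (FDR 0.092 to 0.266) and with library totals in place of TMM (-0.16, FDR 0.170). The 9 plasma samples are not independent animals, but the fit took them so, here and in the other tests between fractions.

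By age, the log2 difference of *bta-miR-122* between EX and FC was -0.51 ± 0.14 (FDR 0.0519) at 20 months, -0.25 ± 0.14 (FDR 0.495) at 25 months and -0.05 ± 0.14 (FDR 0.808) at 30 months, by edgeR with TMM. At these ages 9.39%, 6.67% and 27.6% of the miRNAs were called. With library totals the values were -0.54, -0.33 and 0.38 (FDR 0.0426, 0.279 and 0.0722), so the difference at 20 months passed only on that scale and the direction at 30 months depends on the scaling. The difference between EX and FC in the change from 25 to 30 months did not pass with TMM (0.20 ± 0.20 on the log2 scale, FDR 0.555), where 13.3% of the miRNAs were called, and was 0.71 ± 0.20 (FDR 0.0525) with library totals.

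**Figure D4:**
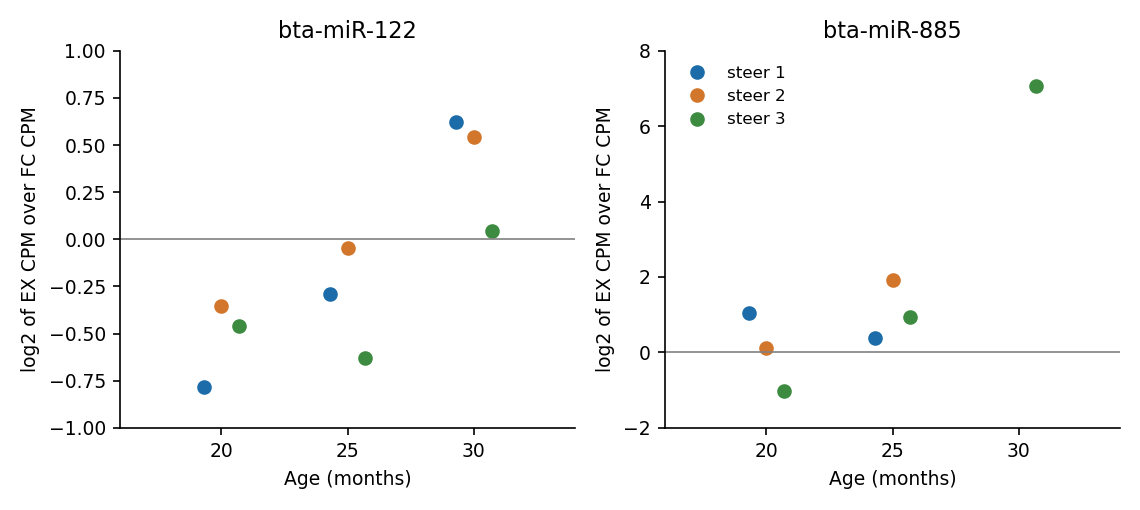
Log2 of the EX over FC ratio of deposited CPM for *bta-miR-122* (left) and *bta-miR-885* (right) at 20, 25 and 30 months, 1 point per plasma sample, coloured by steer. For *bta-miR-122* the points lie below 0 at 20 and 25 months and above 0 at 30 months. For *bta-miR-885* the plasma of steers 1 and 2 at 30 months has no point, since both fractions held 0 counts, and that of steer 3 lies at 7.06, from 76 EX counts and 2 FC counts.

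*bta-miR-885* was a low-abundance miRNA that was present in every library of 20 and 25 months and nearly absent from FC at 30 months. In FC at 20 months, steers 1, 2 and 3 had 27.0, 66.6 and 22.2 CPM (mean 38.6 ± 24.4, SD, n = 3), from 327, 481 and 207 counts. At 25 months they had 21.2, 19.8 and 25.9 CPM (22.3 ± 3.20), from 205, 138 and 287 counts. At 30 months they had 0, 0 and 0.526 CPM, from 0, 0 and 2 counts. No library of 30 months overlapped any of the younger ages, but the share of FC miRNAs that did the same was not counted. The exact (Clopper-Pearson) 95% upper bounds for the 2 libraries at 0 were 0.757 and 1.02 CPM, and the 3-count floors of all 3 were 0.616, 0.830 and 0.789 CPM.

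The fall of *bta-miR-885* in FC was called in both comparisons with 30 months. It passed the filter on low counts through the younger ages alone, so that only miRNAs high at those ages could be called in this way. Pooled over the 3 steers, 2 counts at 30 months stood against 630 at 25 months, a ratio 140-fold lower (95% interval 38.6 to 1157, for counting error only). Against the 1015 counts of 20 months the ratio was 218-fold lower (60.1 to 1800). The FDR was 0.00673 for 30 against 25 months, the 5th smallest p of 358, and 0.00576 for 30 against 20 months, the 4th smallest, by edgeR's quasi-likelihood test. With the rows realigned, both calls held in all 9 alternatives, with FDR up to 0.0402 and 0.0499. With the rows as deposited, the direction was reversed and neither passed (FDR 0.646 and 0.137). Between 20 and 25 months the log2 fold change in FC was -0.59 ± 0.73 (SE, interval -2.25 to 1.07, FDR 0.999).

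The limit of 2 counts below and the level window were taken from *bta-miR-885* itself after its values were seen, so the shares describe its surroundings and support nothing. Of the 86 FC miRNAs whose mean at 20 and 25 months lay within 2-fold of that of *bta-miR-885* (30.5 CPM), it alone (1, or 1.16%) had at most 2 counts in each library of 30 months. Over all 358 tested FC miRNAs, 2 (0.559%) did, the other being *bta-miR-340*, with 2.40 to 9.22 CPM at the younger ages. The commonest count between 10 and 200 was 18, 35 and 20 in FC of steers 1, 2 and 3 at 30 months, equal to 3.69, 9.68 and 5.26 CPM, which is below the 19.8 to 66.6 CPM of *bta-miR-885* at the younger ages.

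In EX at 30 months, *bta-miR-885* was at 0 in steers 1 and 2, as in FC, but not in steer 3. At 20 months, steers 1, 2 and 3 had 55.5, 71.6 and 10.9 CPM (mean 46.0 ± 31.5, SD, n = 3), and at 25 months 27.5, 75.1 and 49.6 CPM (50.8 ± 23.8). At 30 months they had 0, 0 and 70.2 CPM, from 0, 0 and 76 counts. The library of steer 3 lay within the range of the younger ages, so the groups overlapped. By CPM it was above the 25 months library of the same steer (exact intervals 55.3 to 87.9 and 41.2 to 59.3 CPM), but on the TMM scale it was below it (58.2 against 66.9). Pooled counts gave a ratio 2.63-fold lower at 30 than at 25 months (2.04 to 3.42, counting error only), but the spread between steers was larger. The log2 fold change was -3.56 ± 2.86 (SE, interval -10.1 to 2.99, FDR 0.454 by edgeR) for 30 against 25 months, -3.91 ± 3.19 (-11.2 to 3.42, FDR 0.447) for 30 against 20 months and -0.35 ± 1.84 (-4.56 to 3.86, FDR 0.998) for 25 against 20 months. These values rest on single steers. Without steer 1 or 2 the first was -1.45 or -1.34 and the second -0.98 or -1.38. Without steer 3 both 30 months libraries were at 0, so no fold is given, and FDR was 0.0896 and 0.0676. None of them passed.

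The zeros in EX were set beside EX miRNAs of like level, as a description only. Of the 69 EX miRNAs within 2-fold of the level of *bta-miR-885* at 20 and 25 months (48.4 CPM), 19 (27.5%) were at 0 in 2 or more of the 3 libraries of 30 months, against 2 of 86 (2.33%) in FC. This limit was also taken from *bta-miR-885*, which is itself among the 19 and among the 2, so these shares support nothing. Over all 345 tested EX miRNAs, 52 (15.1%) had at most 2 counts in each library of 30 months. The commonest count between 10 and 200 was 86, 71 and 39 in EX of steers 1, 2 and 3 at 30 months, equal to 43.3, 71.6 and 36.0 CPM, against the 48.4 CPM of *bta-miR-885* before. At 20 and 25 months it was 4.68 to 18.3 CPM in EX. Counts were bunched there at 30 months, with 30.3 to 48.9% of the miRNAs of 10 to 200 counts within 20% of the commonest count, against 17.7 to 22.8% at the younger ages. In FC the shares were 19.0 to 24.4% and 15.4 to 22.4%. The part of this bunching in the zeros was not tested. The 76 counts in steer 3 were 70.2 CPM with an exact 95% interval of 55.3 to 87.9 CPM, which covers counting error only.

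Differences between steers in *bta-miR-885* did not pass in EX (FDR 0.994) or FC (FDR 0.924). The EX over FC ratio of its CPM was 2.05, 1.08 and 0.489 at 20 months in steers 1, 2 and 3, and 1.30, 3.79 and 1.91 at 25 months. The fitted log2 difference of EX over FC across the ages was 2.43 ± 0.57 (SE, FDR 0.0187 by edgeR), but the 30 months part of it comes from 76 against 2 counts in steer 3 alone. With 20 and 25 months only it was 0.61 ± 0.50 (FDR 0.620), where 14.2% of the miRNAs were called. The difference between EX and FC in the change from 25 to 30 months did not pass either (FDR 0.0704).

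The liver miRNAs did not move together. *bta-miR-122* was 246- to 2856-fold more abundant than *bta-miR-885* in EX at 20 and 25 months (median 854, n = 6) and 730- to 3801-fold in FC (median 1642, n = 6), counted on molecules of equal length. Over the 18 libraries the Spearman correlation of their CPM was 0.03, as a description, since libraries share steers and plasma. The miRNAs most like *bta-miR-122* among 329 were *bta-miR-30a-5p* (rho 0.87), *bta-miR-483* (0.69), a liver miRNA encoded in the *IGF2* gene, and the listed candidate miRNA numbered 30 (0.69), taken to be the cattle form of *miR-203a-3p*. Those most like *bta-miR-885* were *bta-miR-139* (0.78), *bta-miR-150* (0.68), a lymphocyte miRNA, and *bta-miR-30f* (0.68). The second set includes an abundant white cell miRNA, *bta-miR-150*, whose mean was 107120 CPM over the EX libraries and 65832 CPM over the FC libraries.

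The pair was read beside 8 other miRNAs listed for liver, several of which other tissues also express (*bta-miR-192*, *bta-miR-194*, *bta-miR-215*, *bta-miR-148a*, *bta-miR-101*, *bta-miR-193b*, *bta-miR-365-3p* and *bta-miR-483*). Of these, 7 were tested in EX and 8 in FC. From 25 to 30 months, edgeR with TMM called 0 of 7 in EX and 1 of 8 in FC, against 14.2% and 15.6% of all miRNAs. In EX, 3 of the 7 had an unadjusted p under 0.05 by edgeR, against 102 of all 345 miRNAs. DESeq2 called 1 of the 7, *bta-miR-193b* (FDR 0.000878), against 85 of the 345. The median log2 fold change was 0.19 in EX against -0.51 over all miRNAs, and 0.61 in FC against -0.20. Of the members, 4 of 7 in EX and 6 of 8 in FC lay above 0, and the rest below. Among the latter, *bta-miR-365-3p* was at -2.08 ± 1.55 in EX and -0.50 ± 0.38 in FC. *bta-miR-194*, which shares a transcript with *miR-192*, rose in FC by a log2 fold change of 1.11 ± 0.26 (SE, FDR 0.0261 by edgeR) from 25 to 30 months and of 1.28 ± 0.26 (FDR 0.03) from 20 to 30 months. Neither call held with no replicate block (FDR 0.0636 in both). Its assignment is uncertain, since in EX it was at 0 in 7 of 9 libraries, in which the near-identical *bta-miR-194b* had 126 to 369 CPM. *bta-miR-148a*, a hepatocyte miRNA that acts on lipid metabolism, had an FDR of 0.0332 in EX (0.83 ± 0.21) and 0.0261 in FC (0.96 ± 0.23), under the fold threshold. With library totals it passed both thresholds, at 1.28 in EX (FDR 0.0129) and 1.07 in FC (FDR 0.0370).

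*bta-miR-192*, an abundant miRNA of liver and gut, had EX means of 34212, 35351 and 76170 CPM and FC means of 54073, 60264 and 109179 CPM at 20, 25 and 30 months. All 3 libraries of 30 months exceeded all 6 younger ones in both fractions, but the share of all miRNAs that did so was not counted. Its log2 fold changes from 25 to 30 months of 0.73 ± 0.30 in EX (FDR 0.145) and 0.84 ± 0.27 in FC (FDR 0.0593) did not pass by edgeR. DESeq2 gave FDR 0.00505 and 0.0105 for them, with log2 fold changes of 0.81 and 0.87 under the fold threshold, and called it from 20 to 30 months in FC (1.06, FDR 0.00268). *bta-miR-215*, which has the same seed family as *miR-192*, had 0.19 ± 0.25 (FDR 0.696) and 0.44 ± 0.26 (FDR 0.251). *bta-miR-193b* was at 0 in all 3 EX libraries of 30 months, after 13.2 to 38.5 CPM at 20 months, and was called lower between those ages (FDR 0.0419), where it passed the filter through the younger ages. With library totals the FDR was 0.0546.

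**Figure D5:**
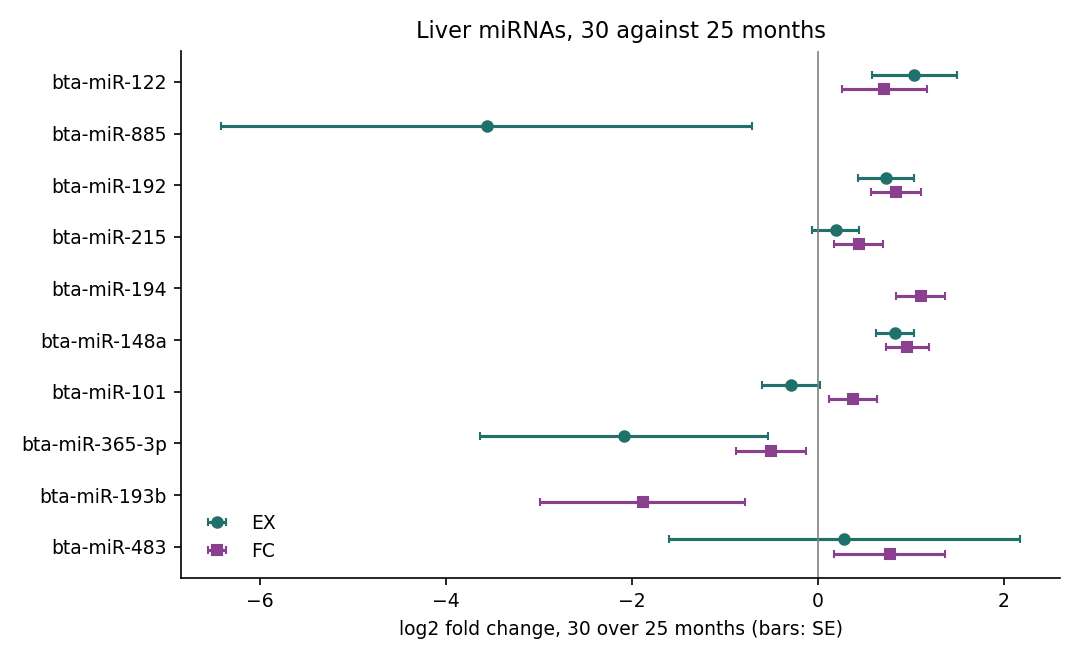
Fitted log2 fold change from 25 to 30 months (x axis) with SE bars for liver miRNAs (y axis) in EX (circles) and FC (squares). *bta-miR-885* in FC and *bta-miR-193b* in EX are not drawn because 3 or fewer counts remained at 30 months, and *bta-miR-194* was not tested in EX. *bta-miR-122*, *bta-miR-192* and *bta-miR-148a* lie above 0 in both fractions, at 0.73 to 1.04 in EX and 0.72 to 0.96 in FC. *bta-miR-365-3p* lies below 0 in both, at -2.08 in EX and -0.50 in FC. *bta-miR-885* (-3.56) and *bta-miR-101* (-0.29) lie below 0 in EX, and *bta-miR-193b* (-1.88) in FC. Of the points drawn, only *bta-miR-194* in FC was called.

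Between fractions, 5 of the 7 other miRNAs of the list were called, 4 lower and 1 higher in EX, against 26.1% of the 330 miRNAs, 61 lower and 25 higher. The log2 differences of EX over FC were -0.76 ± 0.05 for *bta-miR-192*, -0.94 ± 0.06 for *bta-miR-215* and -0.98 ± 0.07 for *bta-miR-148a*, beyond the median of -0.42 over all miRNAs. *bta-miR-122*, at -0.27 ± 0.08, was nearer to 0 than these 3. *bta-miR-101*, which many tissues express, was the member higher in EX, at 0.50 ± 0.08 (FDR 0.00196 by edgeR), and *bta-miR-193b* was the fourth that was lower. These 2 calls did not hold at every age. At 30 months *bta-miR-101* was at -0.003 ± 0.14 (FDR 0.992). With 20 and 25 months only, *bta-miR-193b* was at -0.40 ± 0.59 (FDR 0.786), and its EX libraries of 30 months held 0 counts.

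White cell markers differed between ages in the same libraries, and red cell markers overlapped. The 10 liver miRNAs together made up 8.23 to 16.1%, 4.85 to 14.6% and 13.2 to 22.6% of the counts in EX at 20, 25 and 30 months, and 12.9 to 22.1%, 7.14 to 19.5% and 17.1 to 27.3% in FC. The 4 white cell and platelet miRNAs (*bta-miR-150*, *bta-miR-142-5p*, *bta-miR-223* and *bta-miR-126-3p*) made up 20.1 to 25.6%, 17.0 to 34.9% and 5.69 to 8.16% in EX, and 15.2 to 18.6%, 15.2 to 27.7% and 8.13 to 11.0% in FC, with no member at 0. Their ranges at 30 months did not overlap those of the younger ages, which was not tested, and as shares of a fixed total the sums are not independent. The 4 red cell miRNAs (*bta-miR-451*, *bta-miR-486*, *bta-miR-144* and *bta-miR-16b*) made up 11.4 to 24.7% in EX and 10.6 to 18.4% in FC over all ages. The 5 muscle miRNAs (*bta-miR-1*, *bta-miR-133a*, *bta-miR-206*, *bta-miR-208b* and *bta-miR-499*) made up at most 0.0698% in any library. The part of these shares in the values of the liver miRNAs was not tested.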

How the data were processed

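Small RNA of plasma was sequenced in 18 libraries. Per the labels and methods, the authors trimmed reads with cutadapt 5.0 and Trimmomatic 0.39, checked them with FastQC 0.12.1, and counted miRNAs with miRDeep2 on a Japanese Black genome made from ARS-UCD1.2. The authors deposited expected counts per miRNA, with shared reads divided, and CPM values made with edgeR 4.0.16. CPM here is a count scaled to the total of its library, and its table also holds a line of totals, which was left out.

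Deposited counts that differed from CPM times library total (beyond a relative tolerance of 0.001 and 0.02 counts) were recomputed from the CPM. This changed rows of 4 libraries. Counts were rounded, filtered at CPM above 5 in 3 or more libraries out of 9 per fraction (345 miRNAs in EX, 358 in FC, 330 in both), normalized by TMM and fitted with edgeR 4.0.16 (R 4.3.3, limma 3.58.1), with age and steer, or plasma sample and fraction at each age, in the model. SEs and t intervals come from the quasi-likelihood F statistic, and FDR is adjusted by Benjamini and Hochberg over all miRNAs tested. DESeq2 1.42.0 was an alternative, and Python 3.11.15 with numpy 2.4.6, pandas 2.3.3, scipy 1.17.1 and matplotlib 3.10.9 made tables and figures. Other alternatives were other size factors, library totals, no filter, the likelihood ratio test, rows as deposited, no block, and leaving out each steer.

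Replicate numbers pair samples because the study lists the same 3 steers at each age. Age-adjusted profiles of the same steer correlated at a mean r of 0.025 in EX and 0.120 in FC, against -0.012 and -0.060 for different steers. No same-group libraries were copies (smallest chi-square per degree of freedom 198 over 18 pairs). The commonest count of a library is the mode of the smoothed log2 counts between 10 and 200, a measure chosen after the data were seen. The tests were checked on simulated data.

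The members and lists were chosen with earlier results of these data known. Named miRNAs are the pair, the other liver miRNAs that were called or most abundant, the 3 most like each member by Spearman correlation, those sharing a seed, and a few named after their values were seen (*bta-miR-340*, *bta-miR-194b* and the leaders in steer 3). Mapping and qPCR were not analysed here.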

Additional observations from a re-analysis of the deposited data

Results flagged for a closer look

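In a test of the difference between EX and FC in the change from 25 to 30 months, 2 of the 7 other miRNAs of the liver list passed, against 44 of all 330 (13.3%), of which 41 were lower in EX. That direction depends on the scaling, since with library totals 18 were higher and 17 lower. For *bta-miR-101* the EX change was lower than the FC change by a log2 difference of -0.87 ± 0.20 (SE, FDR 0.0219 by edgeR), with means of 10595 and 12105 CPM in EX and 6082 and 8590 CPM in FC at 25 and 30 months. The call was lost with DESeq2 size factors (-0.65, FDR 0.0722), library totals (-0.36, FDR 0.250) and no block (FDR 0.299), and held with the DESeq2 test (FDR 0.0256). For *bta-miR-193b* the FDR was 0.0426, with 81 counts in EX at 25 months and 0 at 30 months, against 595 and 132 counts in FC, so that no fold is given. It passed the filter in EX through the younger ages alone, and 52 of the 345 EX miRNAs (15.1%) had at most 2 counts in each library of 30 months, against 2 of 358 in FC. The FDR ranged from 0.0635 to 0.0977 with DESeq2 size factors, library totals, the DESeq2 test and no block. The pair itself did not pass this test. Why the fractions differ was not tested.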

How the results depend on the processing

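Over the results for the pair, 163 of 196 values kept their direction and side of the threshold, 11 lost the call, 8 gained one and 14 changed sign. For *bta-miR-885* with rows as deposited, FDR was 0.646 and 0.137 for 30 against 25 and 20 months in FC, and the EX over FC difference (-3.53), the change from 20 to 25 months in FC (3.62) and the difference of changes (-9.58) turned as well. The other changes of sign were in values that did not pass. For *bta-miR-885* from 20 to 25 months they came in EX with no replicate block (0.22) and without steer 1 (0.47, range -0.44 to 0.47 over the steers) and in FC without steer 2 (0.16, range -1.09 to 0.16). For *bta-miR-122* they came from 20 to 30 months in FC with DESeq2 size factors (0.0132), the DESeq2 test (0.0130), library totals (0.0251) and without steer 1 or 2 (0.31 and 0.43, range -0.69 to 0.43), and in the difference of changes without steer 1 (-0.0126, range -0.0126 to 0.25). For *bta-miR-122*, EX over FC lost its call with DESeq2 size factors (-0.16), the DESeq2 test (-0.16), rows as deposited (-0.20), no replicate block (-0.22), library totals (-0.16), and without any 1 steer (-0.31 to -0.15). For *bta-miR-885* it lost its call with no replicate block (2.67), at 20 and 25 months only (0.61) and without steer 2, with 2.41 to 2.49 over the steers left out. It could not be fitted without steer 3, since no counts remained at 30 months. Calls were gained by *bta-miR-122* for 30 against 25 months in EX with the DESeq2 test (1.13) and for steer with the likelihood ratio test (FDR 0.0131 in EX, 0.0185 in FC), the DESeq2 test (0.00142, 0.0296), no filter (0.0400 in FC) and steers left out (0.00654 to 0.998 in FC), and by *bta-miR-885* for the difference of changes with the likelihood ratio test (5.12). The paired fit is the main one, and removing the block changed no other call of the pair. The steer tests have no value without the block. Library totals and the 20 and 25 months alternative were chosen after seeing the data.

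Numbers of miRNAs called moved more. For 25 against 20 months in EX, 1 became 2 with no filter, 3 with DESeq2 and 0 to 1 without a steer. For 30 against 25 months in EX, 49 became 90 with the likelihood ratio test, 85 with DESeq2 and 1 to 25 without a steer. For 30 against 20 months in EX, 46 became 83, 78 and 0 to 15, and 28 with library totals. In FC, 56 became 10 with rows as deposited and 10 to 51 without a steer for 30 against 25 months. For 30 against 20 months, 25 became 52 with no filter, 53 with the likelihood ratio test, 49 with DESeq2, 2 with rows as deposited and 5 to 21 without a steer. The steer tests went from 0 to 1 with no filter, 1 with the likelihood ratio test and 3 with DESeq2 in EX, and to 2, 5 and 7, with 0 to 1 without a steer, in FC. EX against FC went from 86 to 132 with DESeq2, 56 with no block, 47 to 57 without a steer and 47 at 20 and 25 months. The difference of changes went from 44 to 28 with DESeq2 size factors, 14 with no filter, 69 with the likelihood ratio test, 29 with rows as deposited, 26 with no block and 0 to 10 without a steer. Library totals moved the median log2 fold change for 30 against 25 months in EX from -0.51 to -0.04, and the split of 13 higher and 36 lower to 21 and 21. They moved 12 and 34 to 13 and 15 for 30 against 20 months in EX, 3 and 41 to 18 and 17 for the difference of changes, and 25 and 61 to 33 and 49 for EX against FC.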
